A study of Mus musculus with 24 samples.

Results

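MicroRNA levels were compared between hearts of mutant mice labelled as given an shRNA virus and hearts of mutant mice given a control virus. A microRNA is a short RNA that pairs with messenger RNAs through its seed, bases 2 to 8 counted from its 5′ end, and lowers their output. In heart muscle, several microRNAs are cut from introns of myosin heavy chain genes: miR-208a from Myh6 (the adult mouse ventricular myosin), miR-208b from Myh7 (the slow, fetal and stress myosin) and miR-499 from Myh7b. They are known for their part in myosin switching, while miR-21 and miR-199 are known from hypertrophied and fibrotic hearts. The table held 568 microRNA hairpin rows, and the 155 rows with a mean of 10000 FPKM or more over its 11 libraries were analysed. FPKM scales reads by hairpin length and by the number of mapped reads, and MFPKM below is FPKM divided by 1000000. The scaling by length was steeper here than length itself. In the mutant heart without virus of replicate 11, 1 read was worth 16386 FPKM in a 63-base hairpin and 634 FPKM in a 110-base hairpin. The 10000 FPKM limit, sums of rows and shares of the FPKM therefore do not weigh rows by their reads. These 155 rows carried 99.98% of the FPKM. The last rows inside the limit were miR-29b-2, with a mean of 10407 FPKM, and miR-92a-2, with 10647 FPKM. The first rows outside it were miR-337, with 9795 FPKM, and miR-879, with 9793 FPKM.

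The groups were mutant hearts labelled shRNA (replicates 5 to 8), mutant hearts with control virus (replicates 1 to 3), mutant hearts without virus (replicates 9 and 11) and wild-type hearts with control virus (replicates 2 and 3). All mice were on a CD1 background and expressed a transgene of the human MYL2 gene, in its mutated or its normal allele. MYL2 encodes the regulatory light chain of ventricular myosin. The genotype field of the labels read RLC-47K L6 for every sample, so the form was taken from the sample names. No source used here gives the transgene's promoter. AAV9, an adeno-associated virus that reaches heart muscle, was injected at 3 days of age and carried either the M7.8L shRNA with a Cerulean reporter or no such shRNA. Hearts were taken at 4 months of age. The study's 24 libraries came from 13 mice, and 7 small RNA libraries enter the comparison. Each library is 1 mouse. Nothing says whether mice shared a litter, and p-values measure the spread between these hearts.

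The labels were set beside polyA RNA of the same hearts. The row named for human MYL2 read 228.8, 419.6 and 317.2 FPKM in the hearts labelled shRNA 5, 6 and 7 while 10 polyA libraries, those of shRNA replicate 8 and all control virus hearts among them, had 0 for it. The row for the shRNA was listed at 0 in all 13. These rows show no knockdown of the transgene where the label says shRNA, so each direction below rests on the labels. Judged by the Y-linked transcript Ddx3y, the hearts labelled shRNA 5, 6 and 7 were male and replicate 8 was female, while all 3 control virus hearts were female. Of the others, the untreated hearts were 1 male (replicate 9) and 1 female (replicate 11), and both wild-type hearts were male. Without replicate 8, shRNA and sex cannot be told apart within the 2 groups compared.

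Small RNA FPKM totals ran from 1491 to 1960 MFPKM, and miR-143 was the highest row in every library, with 40.3% to 48.2% of the total. Whole-read steps could be read in 326 rows, 103 of them tested, and gave about 57367 to 131750 implied reads in the libraries labelled shRNA and 38265 to 125420 in the control virus libraries. The middle one of these 103 rows had a median of 38 implied reads per library, and 29 of them had fewer than 10, so counting error is large there. Only some hairpin rows of the heart markers held high values. The myosin microRNAs stood high, but miR-133a-1 was at 0 in every library, miR-133a-2 reached at most 1887 FPKM, and miR-1-2 was near 0. How reads were assigned among related hairpins is not stated. A hairpin row near 0 therefore does not show that the mature microRNA was absent from the heart. The nerve microRNAs miR-9 and miR-124 were at 0 in all 11 libraries.

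The mature sequences of the microRNAs that the comparison turns on are given first. They come from RefSeq on build GRCm38.p6, in which 140 of the 155 rows found a name. The deposited table uses build mm9, counts a hairpin and does not say which arm was read. Capitals mark the seed. The first 3 are the myosin microRNAs, shown because the pair with the same seed moved in opposite directions.
miR-208b-3p: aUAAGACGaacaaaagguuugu
miR-208a-3p: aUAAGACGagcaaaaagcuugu
miR-499-5p: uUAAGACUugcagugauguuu
miR-208b-3p lies at chr14:54975710-54975731 and miR-208a-3p at chr14:54949072-54949093, both on the minus strand. miR-499-5p lies at chr2:155622893-155622913 on the plus strand. From miR-208b-3p to miR-208a-3p the letters differ only outside the seed, by A10G, G16A and U18C, with positions counted from 1 at the 5′ end. From miR-208b-3p to miR-499-5p, the 1 change within the seed is G8U.

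Further sequences are those of microRNAs that were lower, 4 from the stress list and then miR-152 and miR-148a, with pairs of shared seeds next to each other.
miR-21a-5p: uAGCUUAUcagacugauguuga
miR-199b-3p: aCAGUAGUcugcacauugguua
miR-222-3p: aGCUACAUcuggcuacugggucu
miR-221-3p: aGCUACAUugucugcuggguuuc
miR-152-3p: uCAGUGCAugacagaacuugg
miR-148a-3p: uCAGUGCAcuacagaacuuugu
miR-222-3p and miR-221-3p lie on the minus strand at chrX:19146901-19146923 and chrX:19146307-19146329. The sequence of miR-199b-3p is the same as that made by 2 other hairpins, Mir199a-1 and Mir199a-2, so how reads were split among these rows is uncertain. The same holds for miR-125b-2, miR-24-2 and let-7c-1, which each share a mature sequence with 1 other hairpin.

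The last sequences are those of microRNAs that were higher.
miR-126a-3p: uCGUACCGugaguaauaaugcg
miR-22-3p: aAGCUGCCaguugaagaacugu
miR-204-5p: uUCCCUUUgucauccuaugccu
These have 3 different seeds. miR-126 is the classical endothelial microRNA, miR-22 is abundant in muscle and heart, and miR-204 is best known from the eye.

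With all 4 libraries labelled shRNA, 0 of the 155 rows passed an adjusted p of 0.05 (limma on log2(FPKM + 1000), two-sided, Benjamini-Hochberg over the 155 rows), which is 0.0% of those tested. The smallest adjusted p was 0.0770, and 33 rows had an unadjusted p under 0.05. Without replicate 8, 37 rows passed, 23.9% of those tested: 15 were higher in the hearts labelled shRNA (9.68%) and 22 were lower (14.2%). Their folds ran from 1.26 to 21.9, and 19 of the 37 differed by more than 1 on the log2 scale. The median difference of all 155 rows was -0.05 (log2). The split depends on the scaling: 20 higher and 17 lower passed after library medians were aligned, 10 and 30 with equal FPKM totals, and 16 and 10 after quantile normalization. Equal totals moved the median difference of all rows to -0.18.

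The count also moved with single libraries and with sex. It was 21 without shRNA replicate 5, and 17, 21 and 22 without control virus replicates 1, 2 and 3. Of the 37 rows, 13 passed in each of the 6 fits that left out 1 library. With sex as a covariate, 1 row passed, miR-208b (adjusted p = 0.0345). That fit takes the sex difference from the 2 untreated hearts alone. In that untreated pair, the male heart differed from the female heart in the direction of the call in 20 of the 37 rows. Male minus female (log2) was 1.55 for miR-204, 0.93 for miR-122 and -0.97 for miR-455, all in the direction of the call, and -1.28 for miR-874, against it. A single pair allows no test.

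**Figure D1:**
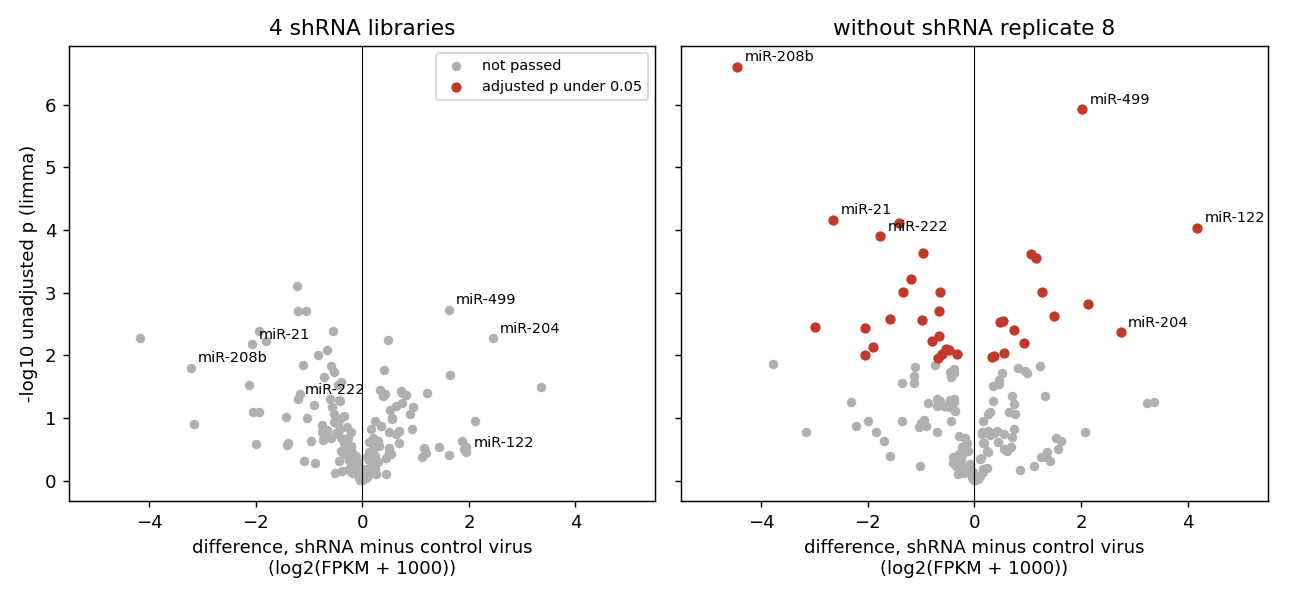
Difference between hearts labelled shRNA and control virus hearts on the log2(FPKM + 1000) scale (x axis) and -log10 of the unadjusted limma p (y axis), 1 point per microRNA row, with all 4 libraries labelled shRNA at left and without replicate 8 at right. Red points passed an adjusted p of 0.05: 0 of 155 at left and 37 of 155 at right.

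Among the myosin microRNAs, miR-208b and miR-499 had the smallest p-values of all tested rows without replicate 8. miR-208b read 1.62, 1.62 and 3.56 MFPKM in the hearts labelled shRNA 5, 6 and 7 and 64.5 MFPKM in replicate 8, against 56.9, 37.9 and 45.4 MFPKM in control virus hearts. Replicates 5 to 7 lay far below every control virus heart and replicate 8 lay above them all. Untreated mutant hearts read 43.7 and 47.6 MFPKM and wild-type hearts 1.96 and 1.67 MFPKM. Without replicate 8, miR-208b was 21.9-fold lower in hearts labelled shRNA (log2 difference -4.45, SE 0.30, limma adjusted p = 3.83e-05). With replicate 8, the difference was -3.22 (SE 1.10, limma adjusted p = 0.154). The implied reads were 184, 240, 735 and 6041 in the hearts labelled shRNA 5 to 8, against 11452, 4721 and 2588 in control virus hearts 1 to 3.

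miR-499 moved the other way. It read 11.0, 9.22, 11.1 and 3.41 MFPKM in the hearts labelled shRNA 5 to 8, against 2.63, 2.42 and 2.62 MFPKM in control virus hearts. All 4 hearts labelled shRNA lay above all control virus hearts, with replicate 8 nearest to them. Without replicate 8 the row was 4.07-fold higher in hearts labelled shRNA (log2 difference 2.02, SE 0.17, limma adjusted p = 9.18e-05), and with it the difference was 1.62 (limma adjusted p = 0.0770). Untreated mutants read 2.64 and 1.84 MFPKM and wild-type hearts 5.77 and 7.55 MFPKM. The adjusted p with sex as a covariate was 0.0652.

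miR-208a differed least of the 3. It read 4.92, 5.64, 5.45 and 3.87 MFPKM in the hearts labelled shRNA 5 to 8, against 2.89, 4.31 and 3.87 MFPKM in control virus hearts. Replicate 8 lay within the control virus range. Without it, miR-208a was 1.46-fold higher (log2 difference 0.55, SE 0.16, limma adjusted p = 0.0451). That call was lost when shRNA replicate 5, 6 or 7 or control virus replicate 1 or 3 was left out (adjusted p up to 0.108).

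The 3 myosin rows together summed to 17.6, 16.5, 20.1 and 71.7 MFPKM in the hearts labelled shRNA 5 to 8, against 62.5, 44.7 and 51.9 MFPKM in control virus hearts. Within that sum, miR-208b made up 9.21%, 9.81%, 17.8% and 89.9% in the hearts labelled shRNA, against 91.2%, 84.9% and 87.5% in control virus hearts. The share was 14.5% and 10.1% in wild-type hearts. In replicates 5 to 7, miR-499 was the largest of the 3, with 55.1% to 62.8% of the sum, while in wild-type hearts miR-208a and miR-499 were close to each other. In bulk tissue, fewer cells of a type and less RNA per cell cannot be told apart.

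**Figure D2:**
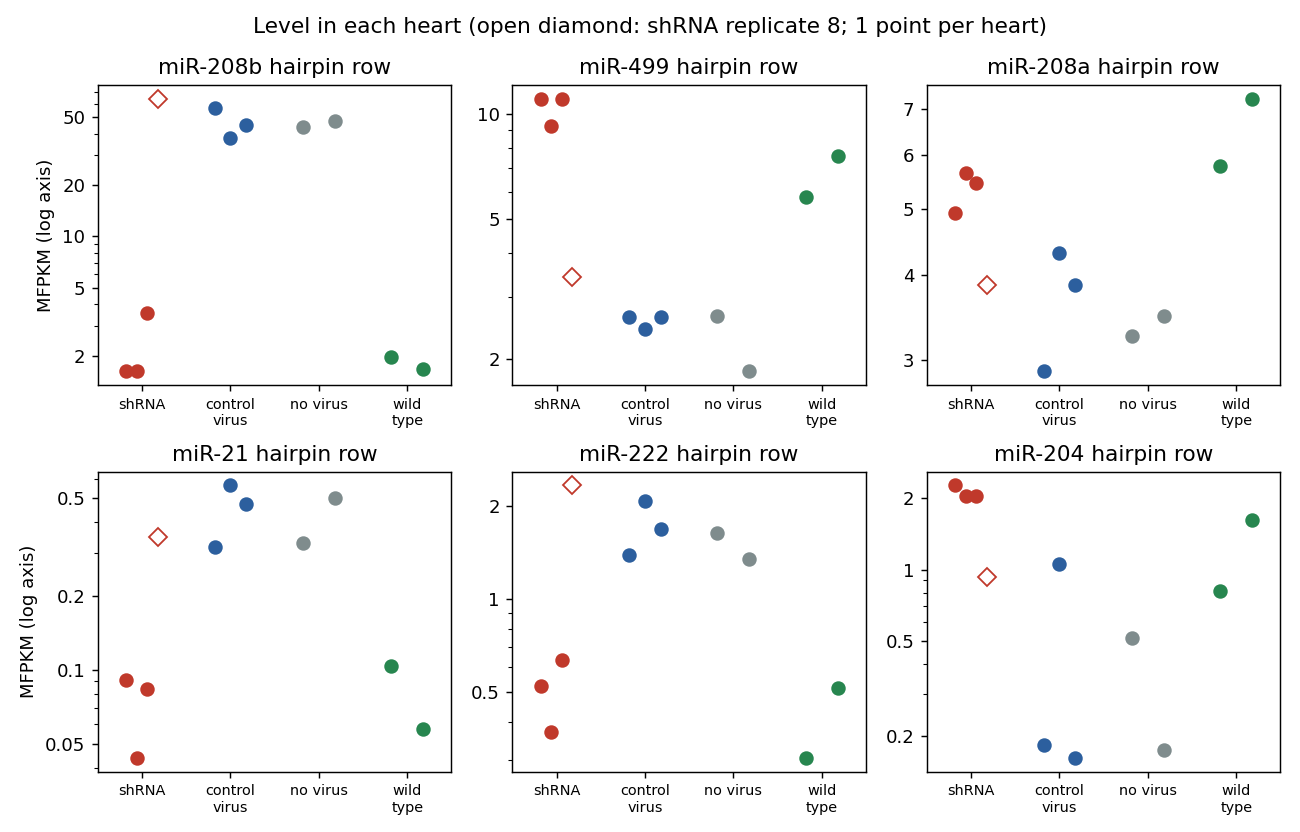
Level of 6 microRNA hairpin rows in MFPKM (log axis) in each heart of the 4 groups, 1 point per heart, with shRNA replicate 8 as an open diamond. For miR-208b the hearts labelled shRNA 5 to 7 lie at 1.62 to 3.56 MFPKM, far below the control virus hearts at 37.9 to 56.9 MFPKM, and replicate 8 lies at 64.5 MFPKM.

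Host transcripts of the same hearts were measured in the polyA libraries, in which 39.4% of 12980 genes passed between the groups without replicate 8 (limma on log2(FPKM + 1)) and 48.1% after library medians were aligned. As deposited, 3952 of these were higher and 1161 lower; after alignment, 3153 were higher and 3095 lower. A host that passed is read against those shares. Myh7 read 205, 570, 615 and 4364 FPKM in the hearts labelled shRNA 5 to 8, against 1961, 1677 and 1661 FPKM in control virus hearts. As with miR-208b, replicates 5 to 7 lay below every control virus heart and replicate 8 above them all. Its log2 difference without replicate 8 was -2.08 as deposited (limma adjusted p = 2.39e-05) and -2.45 after alignment. With replicate 8 it was -1.23 as deposited (limma adjusted p = 0.130) and -1.74 after alignment, where it passed (limma adjusted p = 0.0491).

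Myh7b, the host of miR-499, read 50.1, 70.6, 80.5 and 57.4 FPKM in the hearts labelled shRNA, against 28.1, 22.5 and 26.0 FPKM in control virus hearts. As deposited, replicate 8 lay among replicates 5 to 7, whereas its miR-499 did not. The polyA library of replicate 8 had the highest median shift (0.80 on the log2 scale), and after alignment its Myh7b value was 33.1 FPKM, against 32.0, 20.6 and 32.9 FPKM in control virus hearts. The log2 difference of Myh7b without replicate 8 was 1.34 as deposited (limma adjusted p = 0.000117) and 0.97 after alignment (limma adjusted p = 0.000636). Myh6, the host of miR-208a, was listed at 0 in 1 control virus heart and 2 hearts of other groups beside high values elsewhere, so no difference is given.

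Of 39 tested pairs of a row and its host or overlapping gene, 10 had a row that passed without replicate 8. In 8 of these the transcript differed in the same direction after alignment, and in 5 it also passed, beside 48.1% of all genes. The 8 include miR-208a with Myh6, whose difference is not given above because of values listed at 0. The 5 included Ank1, a red cell and muscle ankyrin gene that holds miR-486, at 0.73 (limma adjusted p = 1.87e-05), and Chm, an X-linked gene that holds miR-361, at -1.22 (limma adjusted p = 0.000513). Egfl7, the endothelial host of miR-126, was 0.66 higher as deposited (limma adjusted p = 0.0297) and had a difference of 0.29 after alignment, where it did not pass (limma adjusted p = 0.0563). Vmp1, whose end overlaps miR-21, differed by 0.01 after alignment (limma adjusted p = 0.944) while miR-21 itself was lower.

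**Figure D3:**
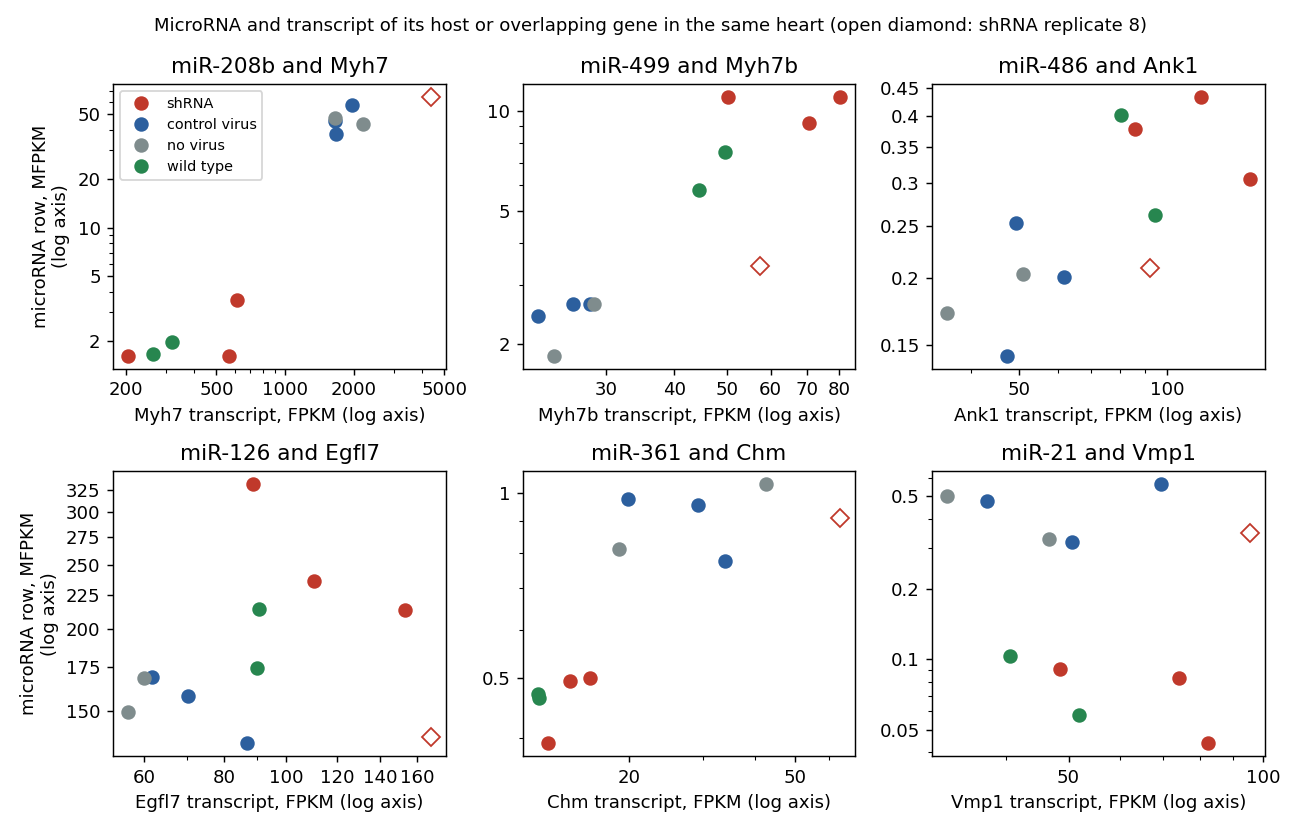
Level of 6 microRNA rows (y axis, MFPKM, log axis) against the FPKM as deposited of the host or overlapping gene in the same heart (x axis, log axis), coloured by group, with shRNA replicate 8 as an open diamond. For miR-208b and Myh7, replicates labelled shRNA 5 to 7 lie low on both axes and replicate 8 is highest on both, at 64.5 MFPKM and 4364 FPKM.

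Among microRNAs often raised in hypertrophied or fibrotic hearts, 10 of 21 listed rows were tested, and 4 passed as lower and 1 as higher, beside 14.2% and 9.68% of all 155 rows. Their median difference was -0.50 (log2), beside -0.05 for all 155 rows. miR-21 read 0.0908, 0.0437, 0.0833 and 0.347 MFPKM in the hearts labelled shRNA 5 to 8, against 0.317, 0.565 and 0.476 MFPKM in control virus hearts. Replicate 8 lay within the control virus range and replicates 5 to 7 below it. Without replicate 8, miR-21 was 6.28-fold lower (log2 difference -2.65, SE 0.37, limma adjusted p = 0.00286), on 17 to 45 implied reads in the hearts labelled shRNA 5 to 7 and 71 to 184 in control virus hearts.

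miR-199b, known from fibroblasts and stressed hearts, read 0.050, 0.0438, 0.0429 and 0.0766 MFPKM in the hearts labelled shRNA, against 0.125, 0.145 and 0.103 MFPKM in control virus hearts. All 4 hearts labelled shRNA lay below all 3 control virus hearts. It was 2.66-fold lower without replicate 8 (log2 difference -1.41, SE 0.20, limma adjusted p = 0.00286), and the difference with all libraries was -1.23 (limma adjusted p = 0.0770). Its sister rows miR-199a-1 and miR-199a-2, and miR-214, were under the limit for testing. miR-199a-1 was at 0 in every library, and miR-214, another fibroblast microRNA, reached at most 14644 FPKM.

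miR-222 and miR-221 are made from 1 X-linked cluster and share a seed. miR-222 read 0.522, 0.370, 0.633 and 2.33 MFPKM in the hearts labelled shRNA 5 to 8, against 1.38, 2.07 and 1.69 MFPKM in control virus hearts, and replicate 8 was the highest of all. It was 3.40-fold lower without replicate 8 (limma adjusted p = 0.00326). miR-221 was 1.75-fold lower (limma adjusted p = 0.0354). Its call was lost without shRNA replicate 5 or 6 or without control virus replicate 1, 2 or 3 (adjusted p up to 0.0943).

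The single member that passed as higher in this list was miR-328, at 1.40-fold in the hearts labelled shRNA. It read 0.531, 0.518, 0.508 and 0.417 MFPKM in the hearts labelled shRNA 5 to 8, against 0.363, 0.371 and 0.379 MFPKM in control virus hearts. Its call was lost without shRNA replicate 5 or without any of the control virus hearts (adjusted p up to 0.0602). The other tested members did not pass. Among these, miR-34a, a p53 target, differed by -0.64, and by -0.96 without shRNA replicate 7, where it passed (adjusted p = 0.0232). miR-132 rested on 0 to 6 implied reads per library.

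Of the 16 tested rows on the X chromosome, 5 passed and all 5 were lower, beside 23.9% of all 155 rows that passed and 14.2% that passed as lower: miR-222, miR-221, miR-361, miR-676 and miR-500. Since replicates 5 to 7 were male and the control virus hearts female, sex and the virus cannot be told apart here. miR-361 read 0.392, 0.50, 0.495 and 0.911 MFPKM in the hearts labelled shRNA 5 to 8, against 0.775, 0.954 and 0.977 MFPKM in control virus hearts. It was 1.95-fold lower without replicate 8 (limma adjusted p = 0.00469). In the untreated pair it read 1.03 MFPKM in the male and 0.811 MFPKM in the female heart, and in the 2 male wild-type hearts 0.465 and 0.471 MFPKM. miR-500 had 1 to 3 implied reads in the hearts labelled shRNA and 3 to 11 in control virus hearts, and miR-676 and miR-500 lost their calls without some single libraries (adjusted p up to 0.0618 and 0.113).

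**Figure D4:**
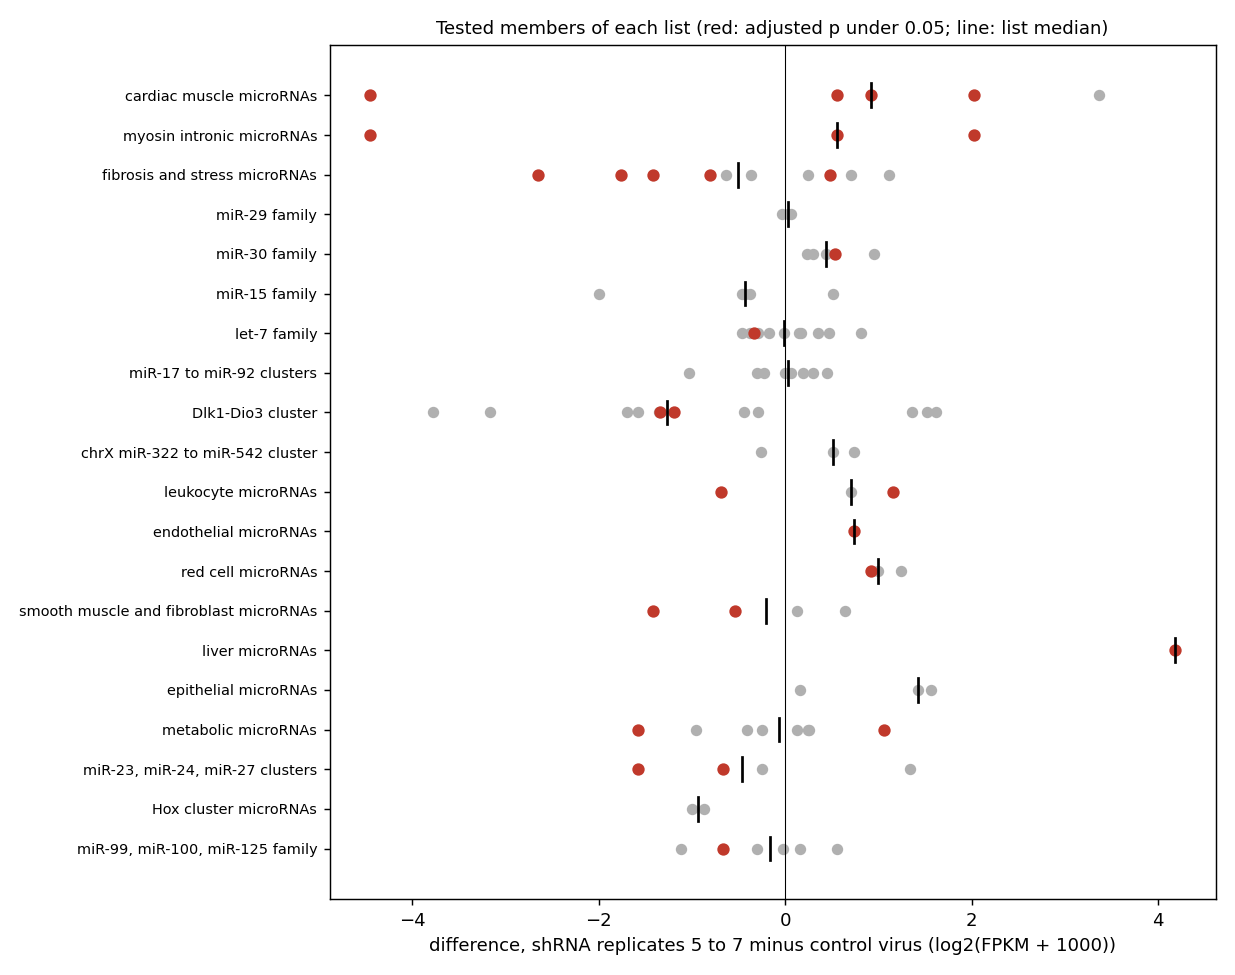
Difference of each tested member of 20 lists of microRNAs, hearts labelled shRNA 5 to 7 minus control virus hearts on the log2(FPKM + 1000) scale (x axis), 1 point per member, with those that passed an adjusted p of 0.05 in red and the list median as a line. The myosin list spans -4.45 (miR-208b) to 2.02 (miR-499), and the miR-29 list lies near 0.

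Some markers of other cell types differed as well. The blood cell list had 3 tested of 7 rows, with 1 higher and 1 lower, beside 9.68% and 14.2% of all 155 rows. miR-150, a lymphocyte microRNA, read 21.9, 21.2, 19.2 and 7.98 MFPKM in the hearts labelled shRNA 5 to 8, against 7.16, 9.62 and 11.6 MFPKM in control virus hearts. It was 2.23-fold higher without replicate 8 (limma adjusted p = 0.00479), and replicate 8 lay within the control virus range. miR-142, found across blood cells, read 21.8, 15.3, 22.6 and 21.4 MFPKM, against 27.0, 40.5 and 28.8 MFPKM in control virus hearts. It was 1.61-fold lower without replicate 8 (limma adjusted p = 0.0470), with the call lost in each of the 6 fits without 1 further library (adjusted p up to 0.118). The leukocyte rows miR-142, miR-150 and miR-223 summed to 36.6 to 43.7 MFPKM in the hearts labelled shRNA 5 to 7 and 29.4 MFPKM in replicate 8, against 34.1 to 50.1 MFPKM in control virus hearts. As deposited, the leukocyte transcript Ptprc lay at 2.77 to 3.88 FPKM in the hearts labelled shRNA 5 to 7. It read 24.2 FPKM in replicate 8, against 8.82 to 13.9 FPKM in control virus hearts. The polyA median shift of replicate 8 (0.80, log2) exceeded those of control virus hearts (-0.34 to 0.13), so its deposited Ptprc value is raised beside theirs. The part of blood cell content was not tested.

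miR-126, the endothelial marker, read 331, 214, 236 and 137 MFPKM in the hearts labelled shRNA 5 to 8, against 158, 134 and 169 MFPKM in control virus hearts. It was 1.67-fold higher without replicate 8 (limma adjusted p = 0.0263). After quantile normalization the difference was 0.12 (adjusted p = 0.465), and the call was lost without shRNA replicate 5 or control virus replicate 1 or 2 (adjusted p up to 0.0614). The endothelial transcripts Cdh5 and Pecam1 were also higher without replicate 8 after alignment, by 0.79 and 0.43 on the log2 scale (limma adjusted p = 0.000151 and 0.00862). In that fit 48.1% of all genes passed. Both transcripts also passed after alignment with replicate 8 included, at 0.72 and 0.42. The miR-126 row did not pass with replicate 8 (0.52, limma adjusted p = 0.280), which lay within the control virus range for it. Whether endothelial content plays a part in the miR-126 difference was not tested.

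The red cell list had 1 of 3 members passing, beside 23.9% of all 155 rows. miR-486 was 1.89-fold higher (limma adjusted p = 0.0367), with the call lost without shRNA replicate 5 or 7 or control virus replicate 1 or 2 (adjusted p up to 0.108). miR-451 and miR-144, made in red cell precursors, had differences of 0.99 and 1.24 and did not pass (limma adjusted p = 0.0630 and 0.0577). miR-451 passed without shRNA replicate 6 and after quantile normalization (adjusted p = 0.0440 and 0.0139). Their sum was 21.3 to 53.8 MFPKM in the hearts labelled shRNA 5 to 7 and 11.8 MFPKM in replicate 8, against 11.8 to 20.99 MFPKM in control virus hearts.

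miR-122, which defines hepatocytes, read 0.382, 0.896, 0.336 and 0 MFPKM in the hearts labelled shRNA 5 to 8, against 0.0144, 0.0232 and 0.0507 MFPKM in control virus hearts. Replicates 5 to 7 lay above every control virus heart and replicate 8 was at 0. Without replicate 8 the log2 difference was 4.18 (SE 0.60, limma adjusted p = 0.00286), the largest difference among rows that were higher. Wild-type hearts read 0.422 and 1.28 MFPKM. Alb, the main hepatocyte transcript, read 1.26, 13.4, 4.77 and 0 FPKM in the hearts labelled shRNA 5 to 8 and at most 0.0660 FPKM in control virus hearts. In wild-type heart 3, Alb reached 66.3 FPKM. Whether liver RNA plays a part was not tested.

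Among other rows that were higher in the hearts labelled shRNA, miR-22 read 0.285, 0.218, 0.217 and 0.101 MFPKM, against 0.117, 0.11 and 0.115 MFPKM in control virus hearts. It was 2.08-fold higher without replicate 8 (limma adjusted p = 0.00469), and replicate 8 lay below every control virus heart. miR-204 read 2.26, 2.04, 2.03 and 0.930 MFPKM, against 0.182, 1.05 and 0.161 MFPKM in control virus hearts. The control virus hearts were widely spread. miR-204 was 6.70-fold higher without replicate 8 (limma adjusted p = 0.0275), and the call was lost in 5 of 6 fits without 1 further library, with control virus replicate 2 the exception (adjusted p up to 0.0793).

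Other named rows that were higher were miR-181c, miR-874, miR-30d, miR-101a and miR-192, and a row annotated as antisense to miR-1-2. miR-181c was 2.41-fold higher (limma adjusted p = 0.0116) and kept its call without any single further library. miR-874 was 4.38-fold higher (limma adjusted p = 0.0171), on 12 to 28 implied reads in the hearts labelled shRNA 5 to 7 and 2 to 5 in control virus hearts. Its call was lost without control virus replicate 1 (adjusted p = 0.0517). miR-101a and miR-192 were 1.30-fold and 1.26-fold higher (limma adjusted p = 0.0457 and 0.0460). The call of miR-101a was lost in each of 6 fits without 1 further library (adjusted p up to 0.108), and that of miR-192 in all but the fit without shRNA replicate 6 (adjusted p up to 0.1265). The antisense row was 2.81-fold higher (limma adjusted p = 0.0229), with the call lost without shRNA replicate 5 or 6 or control virus replicate 1 (adjusted p up to 0.0548). No source used here says whether counting used strand, so the antisense row cannot be told apart from miR-1-2 itself.

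Rows that were lower outside the stress list included miR-130a, miR-434, miR-541, miR-27b and miR-455. miR-130a, a vascular and fibroblast microRNA, read 8.67, 9.86, 11.3 and 12.6 MFPKM in the hearts labelled shRNA, against 13.5, 16.7 and 16.4 MFPKM in control virus hearts. All 4 hearts labelled shRNA lay below all control virus hearts. It was 1.56-fold lower without replicate 8 (limma adjusted p = 0.0116). miR-27b, a regulator of lipid metabolism and vessels, was 2.99-fold lower (limma adjusted p = 0.0229) on 5 to 8 implied reads in the hearts labelled shRNA 5 to 7, and its call was lost without control virus replicate 2 or 3 (adjusted p up to 0.0570). miR-455, a cartilage microRNA, was 4.15-fold lower (limma adjusted p = 0.0258), with the call lost without shRNA replicate 5 or 7 or control virus replicate 1 or 2 (adjusted p up to 0.0721).

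The imprinted Dlk1-Dio3 cluster on chromosome 12 had 12 tested of 51 rows, and 2 passed, both lower: miR-434 and miR-541. Over all 155 rows 23.9% passed and 14.2% passed as lower, so the count is near that share. The list's median difference was -1.27 (log2), but several members rest on few reads: miR-134 had 0 to 4 implied reads per library, miR-379 0 to 5 and miR-299 0 to 1. miR-411, with 67 to 472 implied reads, differed by -0.45, and miR-136 by -0.29. miR-541 read 0.0863, 0.0402, 0.0558 and 0.0864 MFPKM in the hearts labelled shRNA 5 to 8, against 0.136, 0.161 and 0.150 MFPKM in control virus hearts. All 4 hearts labelled shRNA lay below the control virus hearts. miR-541 was 2.54-fold lower without replicate 8, and miR-434 was 2.28-fold lower (limma adjusted p = 0.0116 and 0.00945). Of the 10 members that did not pass, 3 had a positive difference.

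Several families known in heart had no member that passed. The miR-29 family, which targets matrix genes, had 3 tested members with differences of -0.04, 0.03 and 0.07 (limma adjusted p = 0.793, 0.963 and 0.963). miR-29a, its main row, averaged 13.4 ± 0.902 MFPKM in the hearts labelled shRNA 5 to 7 and 13.7 ± 0.404 MFPKM in control virus hearts (SD, n = 3 each). miR-29c and miR-29b-2 had a median of 7 and 2 implied reads. The miR-15 family, the clusters of miR-17 to miR-92 and the X-linked miR-322 cluster had 5, 8 and 3 tested members and 0 that passed. miR-497 of the miR-15 family had a difference of -0.46, and with equal FPKM totals it passed at -0.59 (limma adjusted p = 0.0441). Neither of the 2 tested rows of the Hox cluster list, miR-10a and miR-10b, passed, nor did any of the 3 tested epithelial rows.

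The miR-30 family, rich in heart muscle, had 5 tested members, all with a positive difference, and 1 passed, beside 23.9% of all 155 rows. That member, miR-30d, was 1.45-fold higher (limma adjusted p = 0.0229), with the call lost without shRNA replicate 5 or any control virus heart (adjusted p up to 0.0571). miR-30e had a difference of 0.96 (limma adjusted p = 0.0622) and passed after alignment of medians and without control virus replicate 3 (adjusted p = 0.0454 and 0.0258). The let-7 family had 11 tested members, of which 1, let-7c-1, passed as lower at 1.26-fold (limma adjusted p = 0.0451). Its call held in 1 of 6 fits without 1 further library (adjusted p up to 0.122).

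In the list of smooth muscle and fibroblast microRNAs, 2 of 4 tested rows passed as lower, beside 14.2% of all 155 rows. These were miR-199b, which is also in the stress list, and miR-152. miR-152 was 1.46-fold lower (limma adjusted p = 0.0421), and its call held in 1 of 6 fits without 1 further library (adjusted p up to 0.121). The smooth muscle rows miR-143 and miR-145 had differences of 0.13 and 0.64 and did not pass (limma adjusted p = 0.540 and 0.163). As deposited, the fibroblast transcript Col1a1 lay at 38.4 to 47.6 FPKM in the hearts labelled shRNA 5 to 7. It read 262 FPKM in replicate 8, against 168 to 202 FPKM in control virus hearts. The polyA median shift of replicate 8 (0.80, log2) exceeded those of control virus hearts (-0.34 to 0.13). Its deposited Col1a1 value is raised beside theirs, so replicate 8 is not ranked against them. miR-148a, named after its values were seen because it shares the seed of miR-152, was 1.39-fold lower (limma adjusted p = 0.0421), with its call lost in 5 of 6 such fits (adjusted p up to 0.105).

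Calls in the remaining lists are to be read beside the 9.68% of all 155 rows that passed as higher and the 14.2% as lower. The cardiac muscle list had 5 tested of 10 rows, with 3 higher and 1 lower. These were miR-208a, miR-486 and miR-499 (higher) and miR-208b (lower), all described above under the myosin and red cell rows. Of the miR-23, miR-24 and miR-27 clusters, 2 of 4 tested rows were lower, miR-27b and miR-24-2. miR-24-2 was 1.59-fold lower (limma adjusted p = 0.0308), with the call lost without shRNA replicate 5 or any control virus heart (adjusted p up to 0.0858). Of the metabolic list, 1 of 8 was higher (miR-22) and 1 lower (miR-27b, already counted in the clusters). Of the miR-99, miR-100 and miR-125 family, 1 of 6 was lower, miR-125b-2, at 1.59-fold (limma adjusted p = 0.0201), with the call lost without control virus replicate 1 or 3 (adjusted p up to 0.0519).

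Replicate 8 was set apart over the rows that passed without it. Each row was placed on a line from the control virus mean (0) to the mean of the hearts labelled shRNA 5 to 7 (1). Replicate 8 had a median position of 0.095 and lay nearer to the control virus mean in 30 of the 37 rows. It lay within the control virus range in 14 rows, beyond it toward replicates 5 to 7 in 12, and beyond it away from them in 11. The 12 were among 21 of the 155 rows (13.5%) in which all 4 hearts labelled shRNA lay on 1 side of all control virus hearts, 6 higher and 15 lower. Without replicate 8 this count was 67 rows (43.2%), 30 higher and 37 lower.

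The hearts outside the comparison were placed on the same line. Untreated mutant hearts had median positions of 0.071 (male) and 0.11 (female), each nearer to control virus in 32 of 37 rows. Both wild-type hearts were male, as were the hearts labelled shRNA 5 to 7, while the control virus hearts were female. Genotype and sex therefore cannot be told apart in their positions. Median positions were 0.73 and 0.77 for wild-type hearts 2 and 3, each nearer to the hearts labelled shRNA 5 to 7 in 24 of 37 rows. Both wild-type hearts were on that side in 20 rows, miR-208b, miR-499, miR-21 and miR-222 among them. These positions are a description of the rows chosen by this contrast and carry no test.

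**Figure D5:**
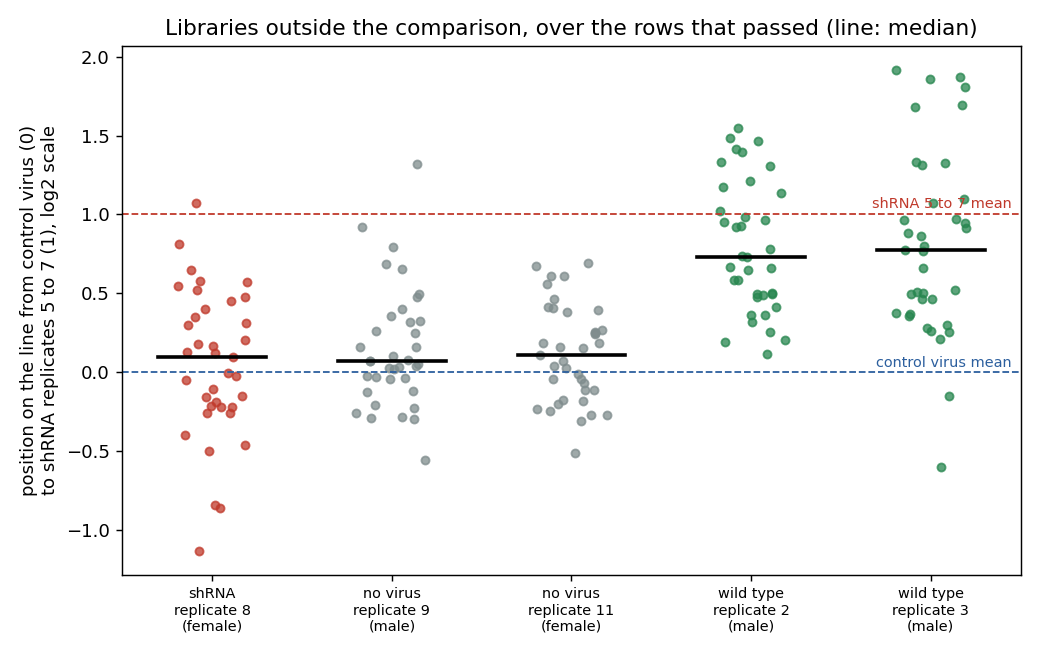
Position of hearts outside the contrast over the 37 rows that passed without replicate 8, on a line from the control virus mean (0) to the mean of the hearts labelled shRNA 5 to 7 (1) on the log2(FPKM + 1000) scale, 1 point per row, with the median as a line. Replicate 8 and the untreated mutant hearts have medians of 0.071 to 0.11, and the wild-type hearts 0.73 and 0.77.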

How the data were processed

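The authors deposited 1 FPKM table per assay. Per the submitters' processing notes, FastQC 0.11.2, STAR 2.40, Cufflinks 2.2.1 and Cuffdiff were used with build mm9; what each did, the annotation, strand use and library scaling are not stated in what was read here. Reads were 50 bases (small RNA) and 100 bases (polyA), per the labels. FPKM values of 11 small RNA libraries were taken as log2(FPKM + 1000), and limma 3.58.1 under R 4.3.3 estimated 4 group means (lmFit, contrasts, eBayes with trend), with all libraries and without shRNA replicate 8. PolyA values were treated alike as log2(FPKM + 1) over 13 libraries. FPKM of 1 read was recovered per hairpin length; all 1099 values of up to 100 reads were whole within 0.05 reads. The procedure was tested on simulated data. Mice were called male where Ddx3y exceeded 5 FPKM. Members and lists were chosen with earlier results of these data known. Named rows are up to 15 that passed and 5 without overlap each way, up to 4 of each of 21 lists, and a fixed set of 37.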

Additional observations from a re-analysis of the deposited data

Results flagged for a closer look

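A library stood apart from the rest of its group by Dixon's test at the 95% level in 8 of 58 rows tested in the 4 hearts labelled shRNA, and replicate 8 was that library in 7 of the 8. Chance gives about 1 in 20 for rows chosen without regard to their values. That rate does not apply here, since many of these rows were named because they passed without replicate 8, as did 6 of the 7, and that choice favours replicate 8 as the library that stands apart. For miR-499 replicate 8 read 3.41 MFPKM, below the other hearts labelled shRNA and above control virus hearts. For miR-122 it read 0. For miR-150 it read 7.98 MFPKM, within the control virus range. For miR-181c it read 0.0722 MFPKM, and for the row antisense to miR-1-2 it read 0.00572 MFPKM, both below every control virus heart. For miR-204 it read 0.930 MFPKM, within the control virus range. For miR-132 it read 0, where the other hearts labelled shRNA had 1 to 2 implied reads. The remaining row was miR-142, in which shRNA replicate 6 read 15.3 MFPKM and replicates 5, 7 and 8 read 21.4 to 22.6 MFPKM.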

How the results depend on the processing

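With all 4 libraries labelled shRNA, the count of rows that passed was 0; it was 3 without a trend in the variance and 3 of 74 among rows with a median of 10 or more implied reads, a limit chosen after seeing the data. Leaving out single libraries gave 0 to 37, and 37 was without shRNA replicate 8. Without replicate 8, the 37 rows became 19 when only the compared groups were fitted, 1 with sex as a covariate, 23 of 74 with 10 or more implied reads, and 17 to 30 without 1 further library. Quantile normalization left 26, of which 20 were among the 37. Rows without overlap numbered 21, and 67 without shRNA replicate 8. None of the 37 called rows changed sign in the 20 alternatives run, and miR-208b, miR-499, miR-21, miR-199b, miR-122, miR-222, miR-361, miR-22, miR-150, miR-434, miR-181c and miR-541 passed in every alternative in which they were tested (17 to 19 a row) other than the sex covariate. The cause of these losses was not tested. Low read numbers limit rows such as miR-500 and miR-132. No paired analysis was possible because the hearts labelled shRNA (5 to 8) and the control virus hearts (1 to 3) share no replicate number.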

Other observations

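The muscle and epithelial rows below did not pass in the comparison. miR-1-1, the general muscle microRNA, had a log2 difference of 3.37 in the hearts labelled shRNA 5 to 7, the largest positive one among rows that did not pass. Its size is poorly fixed: it ran from 1.39 to 9.98 over 18 alternatives and passed in 0 of them. The row's mean was 14995.5 FPKM, close to the 10000 FPKM limit. The epithelial rows miR-200b and miR-375 had differences of 1.56 and 1.42, and the Hox cluster rows miR-10a and miR-10b of -0.88 and -1.0. The epithelial differences rest on single reads. miR-200b had 1 to 4 implied reads in the hearts labelled shRNA 5 to 7 and 0 to 3 in control virus hearts. For miR-375 these were 0 to 2 and 0 to 1.

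The sarcomere transcripts Tnnt2 and Tnni3 were higher in the polyA libraries of the same hearts after alignment. Without replicate 8 the log2 differences were 1.05 and 1.63 (limma adjusted p = 8.91e-06 and 6.81e-07), beside 48.1% of all genes that passed. Actc1 differed by -0.12 (limma adjusted p = 0.436). With replicate 8, Tnnt2 did not pass after alignment (0.79, limma adjusted p = 0.0589) and Tnni3 did (1.23, limma adjusted p = 0.0286). Nppa, the atrial natriuretic peptide gene raised in stressed ventricles, read 1162, 1033, 2315 and 42676 FPKM in the hearts labelled shRNA 5 to 8, against 39637, 46679 and 18713 FPKM in control virus hearts. Replicate 8 lay within the control virus range, as it did for miR-21.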
